A study of Mus musculus with 8 samples.

Results

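The 9 genes Alox12b, Aloxe3, Abca12, Elovl4, Cers3, Cyp4f39, Fa2h, Ugcg and Pnpla1 make, carry or oxidise the ceramides of the epidermal water barrier. They were chosen by name, as rows of the value table that carry exactly 1 gene symbol. All 9 were found, each on 1 row, among 19938 genes with such a row. They were followed in E17.5 mouse embryos, whose full-thickness skin was profiled in 4 samples labelled Pparg null (PpargΔ/Δ) and 4 samples labelled wildtype for PPARgamma, called control here. Both groups had a mixed C57BL6/SV129 background. Each sample was an individual RNA on its own array. The labels name no Cre driver, deleted exon, litter or sex, so p-values measure the spread between these RNAs.

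Ceramides with ultra-long acyl chains fill the space between corneocytes, the dead cells at the skin surface, and keep water in. In suprabasal keratinocytes a fatty acid is elongated, hydroxylated at its far end, joined to a sphingoid base and esterified with linoleic acid, and the product is glucosylated and packed into lamellar granules. After secretion, lipoxygenases oxidise the linoleate, which lets the ceramide be bound to the protein envelope of the corneocyte. Loss of several of these genes causes ichthyosis in humans, and the mouse barrier is laid down late in gestation.

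Pparg itself did not fall in the samples labelled null: it read 8.98 to 9.19 there, against 8.79 to 9.06 on the control arrays (log2 values). Whether its probes lie in the deleted part is not given in the sources used here, so this reading does not check the labels. Directions are therefore given for the arrays as labelled, and "labelled-null" stands for labelled Pparg null. The suprabasal keratins Krt1 and Krt10 read 13.12 to 13.19 and 13.11 to 13.15 on the labelled-null arrays, and 13.08 to 13.20 and 13.09 to 13.20 on the control arrays, so stratified epidermis was present in every sample. Labelled-null array 4 stood apart: it held the highest of the 8 values for 22.1% of all 15174 tested genes and the lowest for 20.4%. Differences of the barrier genes and counts over gene lists are given with and without it. In tissue RNA, fewer cells of a type and less RNA per cell cannot be told apart.

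None of the 9 genes differed between the groups beyond the spread among arrays. All 9 means lay slightly higher on the labelled-null arrays, by a median of 0.11 and at most 0.19 on the log2 scale, while the standard errors ran from 0.12 to 0.22. In limma's fit across all genes 0 of 9 passed an adjusted p of 0.05, where 0.119% of tested genes did, and 0 had an unadjusted p under 0.05, where 3.61% of tested genes did. The adjusted p was 0.9995 or above for each gene, and the exact two-sided permutation p was 0.343 or above, with 0.0286 the smallest that 4 against 4 arrays allow. The groups overlapped for all 9 genes, where 2.45% of tested genes had groups that did not overlap. The confidence intervals allow the genes to be up to 1.33-fold to 1.51-fold higher, or up to 1.09-fold to 1.35-fold lower, on the labelled-null arrays. Of all tested genes 49.7% lay above control over all arrays. Without labelled-null array 4 the count of 9 above control was 2, Fa2h and Ugcg. The differences then ran from -0.20 (Pnpla1) to 0.30 (Fa2h) and 0 of 9 passed. The median log2 difference of all tested genes was -0.0057 in that fit. Their share above control without that array was not counted, here or for the lists below.

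**Figure D1:**
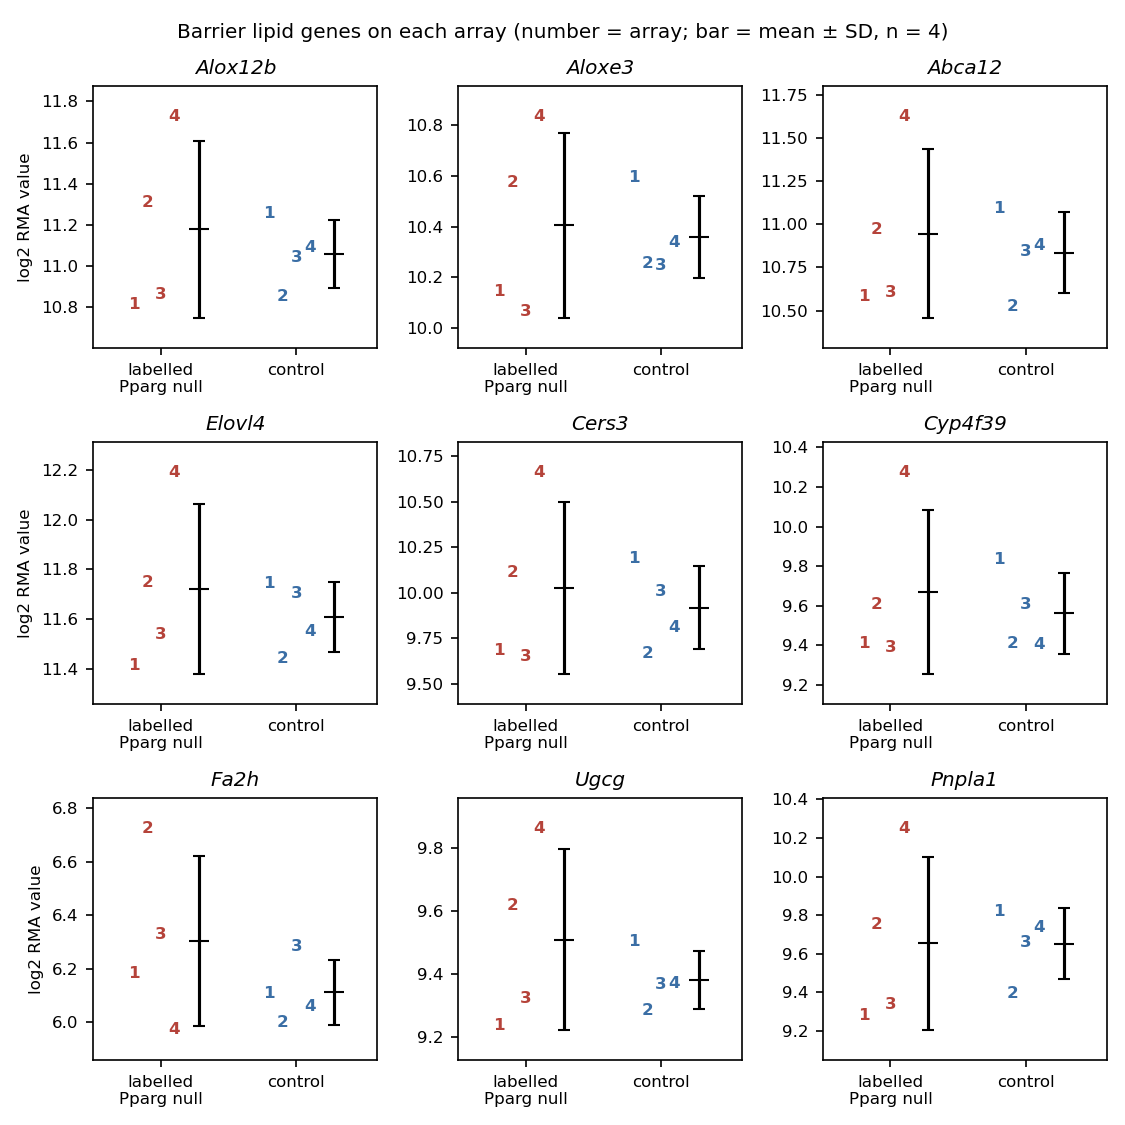
Log2 RMA value (vertical axis, own range in each panel) of the 9 barrier lipid genes on the arrays labelled Pparg null (left) and the control arrays (right). Numbers are arrays within a group and bars are the mean ± SD (n = 4). Labelled-null array 4 is the highest of the 8 arrays for 8 genes and the lowest for Fa2h.

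The enzymes that build the acyl chain showed the pattern shared by most of the genes. Elovl4, the elongase of ultra-long-chain fatty acids, read 11.41, 11.75, 11.54 and 12.19 on labelled-null arrays 1 to 4, against 11.75, 11.44, 11.70 and 11.55 on control arrays 1 to 4 (log2 values). The difference in means was 0.11 on the log2 scale with a 95% confidence interval of -0.22 to 0.45, and -0.04 (95% confidence interval -0.26 to 0.18) without labelled-null array 4. The labelled-null arrays held both the highest and the lowest value, with array 4 above all control arrays and array 1 below them. Cyp4f39, the mouse counterpart of a human fatty acid omega-hydroxylase mutated in ichthyosis, read 9.41, 9.61, 9.39 and 10.27 on labelled-null arrays 1 to 4, against 9.83, 9.41, 9.60 and 9.40 on control arrays 1 to 4 (log2 values). Labelled-null arrays 1 to 3 lay within or close to the control range, and array 4 lay above it. The means of Cyp4f39 were 9.67 ± 0.41 on the labelled-null arrays and 9.56 ± 0.20 on the control arrays (log2 values, SD, n = 4 each), and without labelled-null array 4 the difference was -0.09 (95% confidence interval -0.34 to 0.15).

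Cers3, the ceramide synthase that joins ultra-long acyl chains to the sphingoid base, read 9.68, 10.11, 9.65 and 10.66 on labelled-null arrays 1 to 4, against 10.19, 9.66, 10.005 and 9.81 on control arrays 1 to 4 (log2 values). Its difference was 0.11 on the log2 scale with a 95% confidence interval of -0.36 to 0.58, and -0.10 (95% confidence interval -0.42 to 0.22) without labelled-null array 4. Labelled-null arrays 1 and 3 and control array 2 were the low ones, and labelled-null array 4 was the high one. Pnpla1, the transacylase that esterifies linoleic acid onto the omega-hydroxylated ceramide, read 9.28, 9.75, 9.34 and 10.25 on labelled-null arrays 1 to 4, against 9.82, 9.39, 9.66 and 9.74 on control arrays 1 to 4 (log2 values). Its group means were nearly equal, at 9.65 ± 0.45 on the labelled-null arrays and 9.65 ± 0.18 on the control arrays (log2 values, SD, n = 4 each). This near-equality rested on labelled-null array 4, without which the difference was -0.20 (95% confidence interval -0.49 to 0.10).

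Ugcg, the glucosyltransferase that turns ceramide into glucosylceramide, varied least of the 9. It read 9.24, 9.62, 9.32 and 9.86 on labelled-null arrays 1 to 4, against 9.50, 9.28, 9.37 and 9.37 on control arrays 1 to 4 (log2 values). Its residual SD within groups was 0.21, still larger than that of 93.4% of tested genes. The difference was 0.13 on the log2 scale with a 95% confidence interval of -0.15 to 0.41, and 0.01 (95% confidence interval -0.20 to 0.22) without labelled-null array 4. Abca12, the transporter that loads glucosylceramide into lamellar granules and is mutated in harlequin ichthyosis, varied most. It read 10.58, 10.97, 10.61 and 11.63 on labelled-null arrays 1 to 4, against 11.09, 10.53, 10.84 and 10.88 on control arrays 1 to 4 (log2 values). Labelled-null array 4 lay 2.06-fold above labelled-null array 1, whereas the control arrays spanned 1.48-fold. The means of Abca12 were 10.95 ± 0.49 on the labelled-null arrays and 10.83 ± 0.23 on the control arrays (log2 values, SD, n = 4 each), and without labelled-null array 4 the difference was -0.12 (95% confidence interval -0.42 to 0.19).

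The lipoxygenases Alox12b and Aloxe3 act in sequence on the linoleate of the acylceramide, Alox12b by adding a hydroperoxide and Aloxe3 by converting it to an epoxy alcohol. Alox12b read 10.81, 11.31, 10.86 and 11.73 on labelled-null arrays 1 to 4, against 11.25, 10.85, 11.04 and 11.09 on control arrays 1 to 4 (log2 values). The difference was 0.12 on the log2 scale with a 95% confidence interval of -0.30 to 0.53, and -0.06 (95% confidence interval -0.36 to 0.23) without labelled-null array 4, which lay 0.42 above the next highest array. Aloxe3 read 10.14, 10.57, 10.06 and 10.84 on labelled-null arrays 1 to 4, against 10.59, 10.25, 10.25 and 10.34 on control arrays 1 to 4 (log2 values). Its means were 10.40 ± 0.36 on the labelled-null arrays and 10.36 ± 0.16 on the control arrays (log2 values, SD, n = 4 each), and labelled-null arrays 3 and 1 held its lowest values. Without labelled-null array 4 the difference was -0.10 (95% confidence interval -0.39 to 0.19). In the RefSeq gene table of assembly GRCm38.p6 the coding genes Aloxe3, Alox12b and Alox8 follow each other on chromosome 11. Alox8, another lipoxygenase, did not share the array order: it was highest on labelled-null array 2, at 6.84, and read 6.31 on labelled-null array 4 (log2 values).

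**Figure D2:**
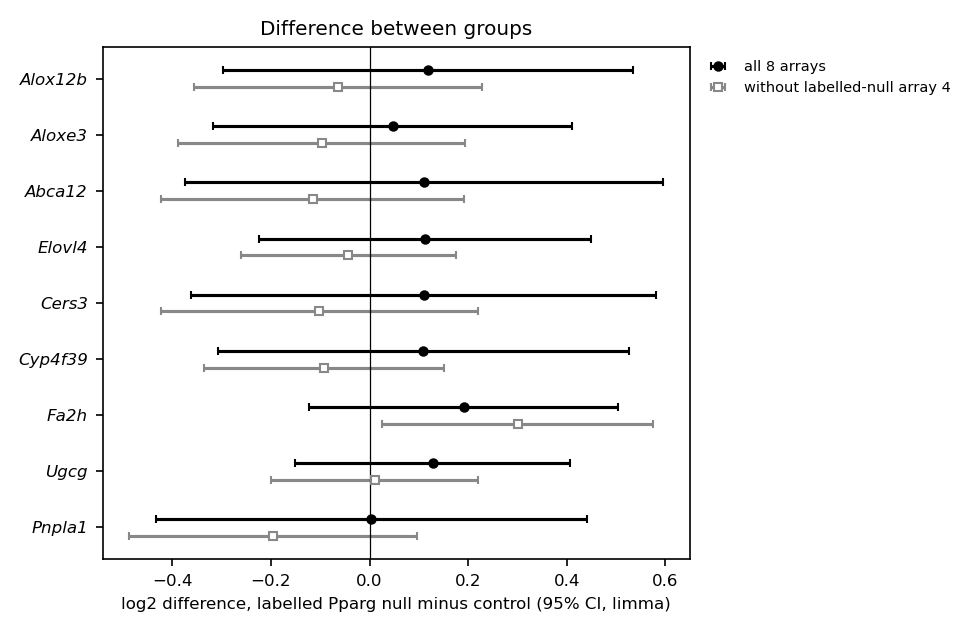
Log2 difference, labelled Pparg null minus control, with its 95% confidence interval from limma, for each barrier lipid gene (rows), over all 8 arrays (filled circles) and without labelled-null array 4 (open squares). All 9 intervals over 8 arrays include 0, and 7 of the 9 estimates lie below 0 without that array.

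Fa2h, which adds a hydroxyl group beside the carboxyl end of the acyl chain of ceramides and also serves myelin and sebaceous lipids, ran against the other 8 genes on labelled-null array 4. It read 6.18, 6.72, 6.33 and 5.97 on labelled-null arrays 1 to 4, against 6.11, 5.999, 6.28 and 6.06 on control arrays 1 to 4 (log2 values). Array 4 was the lowest of all 8 arrays and array 2 the highest. The difference over all arrays was 0.19 on the log2 scale with a 95% confidence interval of -0.12 to 0.50. Without labelled-null array 4 it was 0.30 (95% confidence interval 0.03 to 0.58), which in limma's fit across all genes gave an adjusted p of 0.9993. Without labelled-null array 2, the highest, it was 0.05 (95% confidence interval -0.17 to 0.27), so that the size of the difference rested on these arrays. Its values lay not far above the limit under which a row was treated as dim, which ran from 5.62 to 5.67 over the arrays.

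The spread between arrays within a group was wide for these genes. The residual SD of the fit ran from 0.21 to 0.38 with a median of 0.33, against a median of 0.098 over all tested genes, and each of the 9 exceeded that of at least 93.4% of tested genes. The SD was larger among the labelled-null arrays than among the control arrays for all 9 genes, by 2.04 to 3.13 times (from 0.29 to 0.49 against 0.09 to 0.23 on the log2 scale). Over all tested genes the median of that ratio was 1.12, and 18.4% of genes reached a ratio of 2, as all 9 barrier genes did. Without labelled-null array 4 the SD of the remaining labelled-null arrays exceeded that of the control arrays for 7 of 9 genes, and the ratio was 0.59 for Cyp4f39 and 0.94 for Abca12. Over all tested genes the median ratio was then 0.89, and 43.6% of genes had the larger SD on the labelled-null side. The difference in spread between the groups was not tested.

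**Figure D3:**
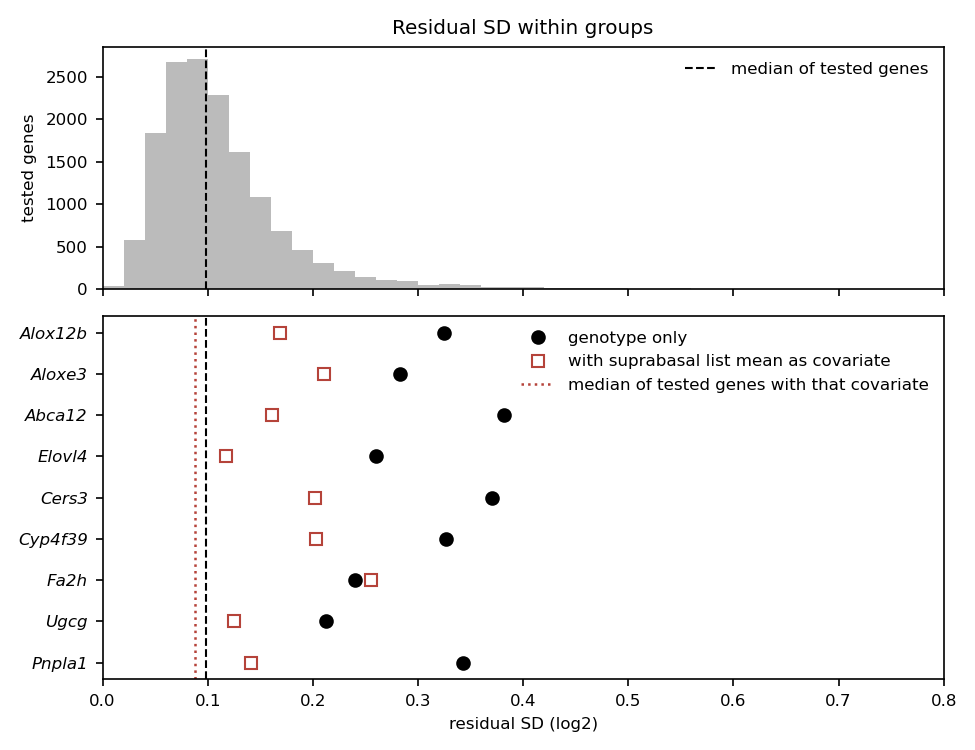
Upper panel: number of tested genes (vertical axis) by residual SD within groups (log2, horizontal axis). Lower panel: residual SD of each barrier lipid gene in the fit with genotype alone (circles) and with the mean of the suprabasal list as a covariate (squares); the dashed line is the median of tested genes without the covariate, at 0.098, and the dotted line that with it, at 0.088. All 9 circles lie right of the dashed line and all 9 squares right of the dotted line, and each square lies left of its circle for all genes but Fa2h.

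The 8 genes other than Fa2h varied together from array to array. Labelled-null array 4 was the highest of 8 for each of them, by 1.39-fold to 1.79-fold over the mean of the other 7 arrays. Labelled-null array 2 and control array 1 held the ranks below it for all 8 genes. The lowest value fell on labelled-null array 1 for 4 genes, on labelled-null array 3 for 3 and on control array 2 for Abca12. After the group means were taken out, Pearson's r over the 8 arrays ran from 0.89 to 0.99 in the 28 pairs of these genes, and from 0.70 to 0.98 without labelled-null array 4. Fa2h had r of -0.36 to -0.12 with the 8 others over all arrays and 0.55 to 0.86 without labelled-null array 4. On labelled-null array 3 Fa2h ranked 2 of 8 from the top, where the 8 others ranked 6 to 8. With the group means left in, r of Fa2h with the mean of all the barrier genes was -0.01 over 8 arrays. This r was -0.04 without labelled-null arrays 4 and 2. It takes in the difference between groups, so it cannot be set against the r within groups above. These coefficients are descriptions: the pairs share arrays, RNA samples and normalization.

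**Figure D4:**
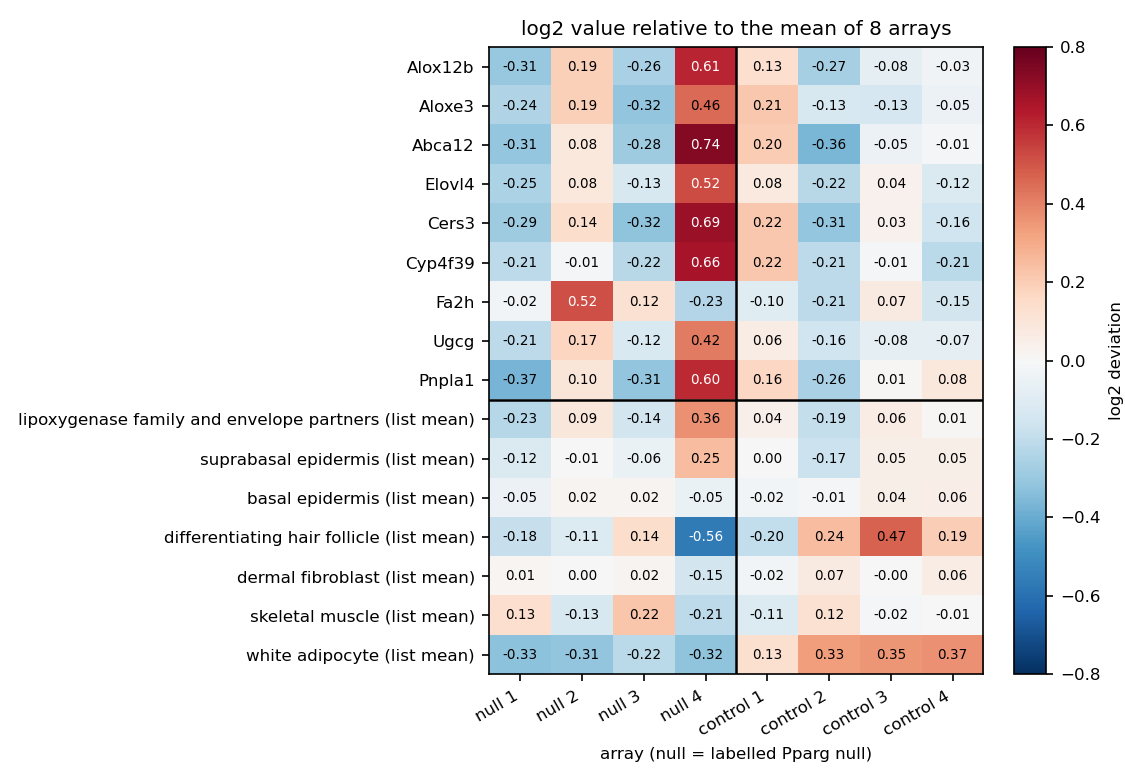
Log2 value relative to the mean of 8 arrays for the 9 barrier lipid genes and, below the line, the mean of 7 gene lists (rows), on the labelled-null arrays (left) and the control arrays (right). The 8 genes other than Fa2h are 0.42 to 0.74 above their mean on labelled-null array 4, where the suprabasal list is at 0.25 and the differentiating hair follicle list at -0.56.

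The promoters of the barrier genes were also searched for motifs. The promoters come from RefSeq (GRCm38.p6), which gave entries for 7 of the 9 genes, all but Aloxe3 and Fa2h, each reaching from 250 bases before the gene's start to 50 after it. AGGTCA, the half-site of PPAR and other nuclear receptors, was searched on both strands and lay in the promoter of Cers3 alone, where 16.3% of all 32851 promoters hold it. The full PPAR element DR1, a direct repeat of that half-site with a spacer of 1 base, lay in 0 of 7 and in 0.0396% of all promoters. CCACACCC, a KLF motif, lay in that of Alox12b alone, where 3.56% of all promoters hold it. The AP-1 motif TGANTCA and the grainyhead motif AACCNGTT lay in 0 of 7, against 7.81% and 2.09% of all promoters. A match describes letters and is not a bound site. The 250 bases before the start of Cers3 (chr7:66743254-66743503, plus strand) and Alox12b (chr11:69156822-69157071, plus strand) are shown 5′ to 3′ because they hold the matches, with the motif in capitals.
Cers3: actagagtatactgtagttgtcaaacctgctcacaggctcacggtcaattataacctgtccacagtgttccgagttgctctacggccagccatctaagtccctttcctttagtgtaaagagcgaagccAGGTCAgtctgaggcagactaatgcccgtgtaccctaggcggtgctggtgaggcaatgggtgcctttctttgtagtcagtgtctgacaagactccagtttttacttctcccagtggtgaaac
Alox12b: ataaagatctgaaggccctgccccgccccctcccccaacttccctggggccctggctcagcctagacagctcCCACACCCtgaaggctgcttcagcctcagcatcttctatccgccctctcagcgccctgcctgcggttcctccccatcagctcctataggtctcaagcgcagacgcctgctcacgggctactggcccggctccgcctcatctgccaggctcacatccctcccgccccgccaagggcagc

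Markers of the differentiated epidermis shared part of this order of arrays. The mean of 11 tested suprabasal genes, relative to all arrays, was -0.12, -0.01, -0.06 and 0.25 on labelled-null arrays 1 to 4, against 0.00, -0.17, 0.05 and 0.05 on control arrays 1 to 4 (log2). Its highest and lowest arrays, labelled-null array 4 and control array 2, were also high and low for the barrier genes. Of those 11 genes 7 were highest on labelled-null array 4, as was 1 of 8 basal epidermal genes, against 22.1% of all tested genes. The basal list mean ran from -0.05 to 0.02 on the labelled-null arrays and from -0.02 to 0.06 on the control arrays. With the suprabasal mean as a covariate the residual SD was smaller for 8 of 9 barrier genes than in the fit without it, for example 0.16 against 0.38 for Abca12 and 0.14 against 0.34 for Pnpla1, and it was 0.26 against 0.24 for Fa2h. Over all tested genes the median residual SD was 0.088 with the covariate and 0.098 without it, and it was smaller for 53.4% of genes. In that fit 0 of 9 genes passed the threshold and 7 lay above control.

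Lists of other tissues lay in both directions on labelled-null array 4. The differentiating hair follicle list was at -0.18, -0.11, 0.14 and -0.56 on labelled-null arrays 1 to 4, against -0.20, 0.24, 0.47 and 0.19 on control arrays 1 to 4 (log2, relative to all arrays). Of its 10 tested genes 5 were lowest on labelled-null array 4, as were 7 of 9 dermal fibroblast genes and 5 of 7 skeletal muscle genes, where 20.4% of all tested genes were. The list of periderm and simple epithelium was at 0.03, 0.10, -0.34 and 0.60 on labelled-null arrays 1 to 4, against 0.44, -0.21, -0.52 and -0.10 on control arrays 1 to 4, so that its high arrays were among those high for the barrier genes. The erythroid and sebocyte lists were also highest on labelled-null array 4. The erythroid list was at 0.20, -0.16, 0.07 and 0.40 on labelled-null arrays 1 to 4, against 0.05, -0.17, -0.36 and -0.03 on control arrays 1 to 4, with 2 of 4 tested genes highest on labelled-null array 4. The sebocyte list was at -0.24, -0.11, -0.28 and 0.24 on labelled-null arrays 1 to 4, against 0.13, -0.05, 0.14 and 0.18 on control arrays 1 to 4. Of its 5 tested genes 1 was highest on labelled-null array 4, Far2, at 10.58 there and 7.68 to 8.98 on the other arrays (log2 values). Scd1, of the same list, was lowest on labelled-null array 4, at 8.54, so the high list mean rested on Far2. The part of these tissues in the profile of the barrier genes was not tested.

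The wider pathway of ceramide synthesis and turnover held 0 genes past limma's threshold, and 0 with an unadjusted p under 0.05. Of 14 tested genes of sphingoid base and ceramide synthesis 8 lay above control and 6 below, with a median log2 difference of 0.01, against 0.00 over all tested genes. Sptlc1, a subunit of serine palmitoyltransferase, lay at 0.12, Ormdl3, which restrains that enzyme, at -0.12, and the ceramide synthase Cers2 at -0.06. Among 14 genes of fatty acid synthesis and elongation 8 lay above and 6 below (median 0.04). The desaturase Scd1 lay at -0.20, fatty acid synthase (Fasn) at -0.08 and the elongase Elovl6 at 0.10. Among 17 genes of ceramide processing and turnover 8 lay above and 9 below (median -0.01), with the ceramidases Asah2 and Acer1 at 0.13 and 0.12 and the sphingosine kinase Sphk2 at -0.08. These are log2 differences with limma adjusted p of 0.9995 each. Without labelled-null array 4 these counts turned: 4 of 14, 4 of 14 and 3 of 17 genes of the lists lay above control, with medians of -0.02, -0.03 and -0.07, and 0 passed. Of the genes named here, Asah2 was then at -0.05, Acer1 at -0.07, Sptlc1 at 0.003 and Elovl6 at 0.0003. Ormdl3, Cers2, Scd1, Fasn and Sphk2 stayed below control, at -0.14, -0.08, -0.11, -0.07 and -0.07.

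Lipoxygenase relatives and partners of the corneocyte envelope divided 12 above and 7 below control among 19 tested genes (median 0.05), and 0 passed. They divided 3 above and 16 below without labelled-null array 4 (median -0.07), and 0 passed. The epidermal lipoxygenase Alox12e lay at -0.34 and Alox15 at 0.17 (log2 differences). Alox12e was at 6.76 for labelled-null array 4, its lowest, and the other labelled-null arrays spanned 7.47 to 7.66, against 7.44 to 7.96 for the control arrays (log2 values). Its difference was -0.13 without labelled-null array 4. Tgm5, a transglutaminase of the cornified envelope, lay at -0.18 with an unadjusted p of 0.0183 and an adjusted p of 0.9995. In this list 13 of 19 genes were highest on labelled-null array 4. Named after its values were seen, Sdr9c7, the dehydrogenase that acts after Aloxe3, had the same high arrays as the barrier genes. Sdr9c7 read 9.52, 9.95, 9.57 and 10.65 on labelled-null arrays 1 to 4, against 10.09, 9.58, 9.94 and 9.84 on control arrays 1 to 4 (log2 values). Ephx3, an epoxide hydrolase also named after its values were seen, shared the highest array but not the arrays ranked next. Labelled-null arrays 1 and 3 and control array 2, low for most barrier genes, were low for Ephx3 too. Ephx3 read 8.40, 8.89, 8.74 and 9.86 on labelled-null arrays 1 to 4, against 8.86, 8.54, 9.15 and 9.13 on control arrays 1 to 4 (log2 values). Control arrays 3 and 4 thus followed labelled-null array 4.

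Transcription factors of barrier formation and nuclear receptors also held 0 genes past the threshold among 16 tested, with 7 above and 9 below control (median -0.02), and 3 above and 13 below without labelled-null array 4 (median -0.07). Nr1h3, the liver X receptor alpha, had the smallest unadjusted p of the list. It read 6.34, 6.14, 6.18 and 6.31 on labelled-null arrays 1 to 4, against 6.44, 6.40, 6.41 and 6.51 on control arrays 1 to 4 (log2 values). Its difference was -0.20 (limma unadjusted p = 0.00809, adjusted p = 0.9975). Its groups did not overlap, which was so for 2.45% of tested genes. Groups without overlap always give an exact permutation p of 0.0286, so that p adds nothing further. Rxrb, a partner of PPAR and liver X receptors, lay at -0.09, and Gata3, a regulator of barrier lipid synthesis, at -0.11 (log2 differences). On the same arrays the white adipocyte list separated the groups, with 4 of 9 tested genes past the threshold. Fabp4, the adipocyte fatty acid binding protein, read 8.79 to 9.35 on the labelled-null arrays, against 9.97 to 10.38 on the control arrays (log2 values, limma adjusted p = 0.0189). Of the sebocyte list 1 gene passed, Mgst1, a microsomal glutathione transferase named after its value was seen, at a log2 difference of -0.53 (limma adjusted p = 0.0196). These calls depended on the arrays and the fit. Of the 4 adipocyte genes 1 passed with a replicate block, at an adjusted p of 0.01, and without labelled-null array 1 or 2 or control array 2, 3 or 4, 2 passed with an Xist covariate and 3 without labelled-null array 4 or with the filter at the 50th percentile. Fabp4 and Mgst1 had limma adjusted p of 0.0965 and 0.153 with the replicate block. With 1 array left out, the adjusted p ran from 0.0132 to 0.089 for Fabp4 and from 0.0321 to 0.111 for Mgst1.

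**Figure D5:**
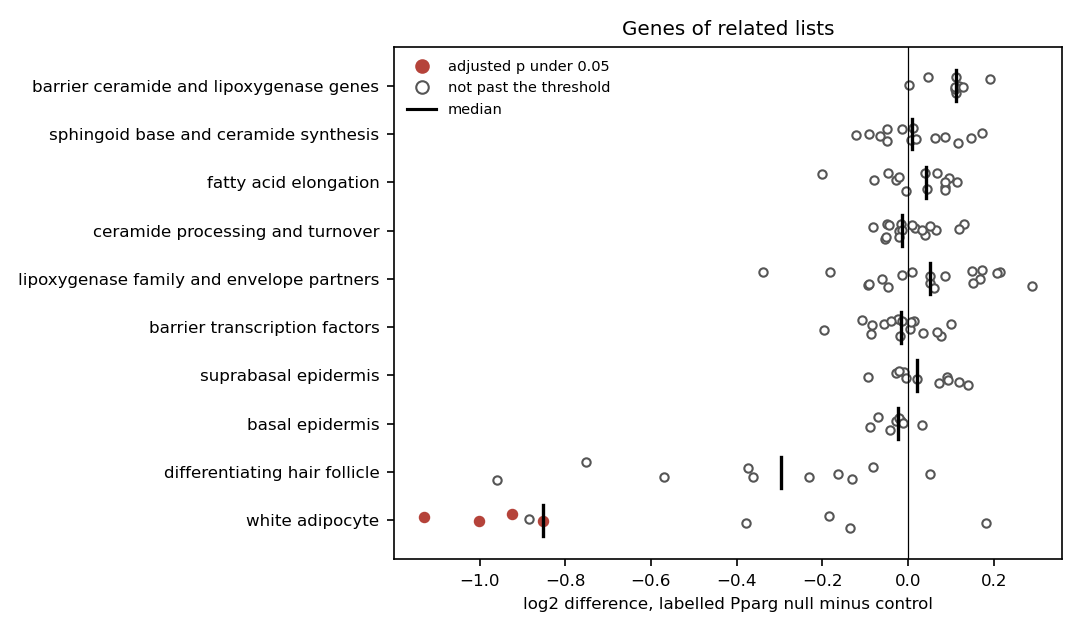
Log2 difference, labelled Pparg null minus control (horizontal axis), of each tested gene in 10 lists (rows); vertical bars are medians and filled points passed a limma adjusted p of 0.05. The barrier genes lie between 0.00 and 0.19 with none filled, and the 4 filled points all belong to the white adipocyte list.

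Outside these lists, the 5 genes whose log2 values over the 8 arrays were most like the mean of the 9 barrier genes were Serpinb8, Dsp, Rab25, Slc15a1 and Vav3. Pearson's r was 0.99 for each, chosen as the highest among all tested genes and so given as a description, with Spearman's rho of 0.93 to 0.98. Without the 2 arrays farthest from the median, labelled-null arrays 4 and 2, r was 0.97 to 0.99. Dsp encodes desmoplakin, the linker of desmosomes to keratin filaments, Rab25 an epithelial trafficking GTPase and Slc15a1 a peptide transporter. Serpinb8 read 9.15, 9.64, 9.12 and 10.16 on labelled-null arrays 1 to 4, against 9.61, 9.11, 9.35 and 9.34 on control arrays 1 to 4 (log2 values). None of the 5 passed the threshold between groups (limma adjusted p = 0.9995 each).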

How the data were processed

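RNA of 8 full-thickness skin samples was measured on Affymetrix whole-transcript arrays from 100 ng of total RNA, with 5.5 μg of labelled cDNA, per the labels' protocols. The deposited values are log2 expression that the submitters' processing notes credit to RMA and Affymetrix Expression Console; for versions, build and filters, the sources used here give nothing. RMA quantile-normalizes arrays, so a shift of all genes together cannot be seen. No value of 1 row is set against that of another row, since probes differ in response.

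Rows were named from the platform annotation (21789 of 35556 rows with 1 symbol), with 21698 symbols updated by gene ID through RefSeq GRCm38.p6. Where a gene had several rows, the row of highest mean was used. Genes above the 30th percentile of their array on at least 4 of 8 arrays were tested (15174, all 9 barrier genes included) with limma 3.58.1 in R 4.3.3 (lmFit, eBayes), labelled Pparg null minus control, no covariate, two-sided, Benjamini-Hochberg adjusted over all genes at 0.05. The fit was tested on simulated data with independent noise for each gene. It recovered 80.6% of set log2 differences of 0.5 and 96.6% of those of 1, with 5.72% of calls false. The changed genes were drawn at random from the tested genes, whose median residual SD was 0.098. The barrier genes had 0.21 to 0.38, so the recovered shares do not describe them. Shifts shared by many genes on an array, and differences as small as those of the barrier genes, were not simulated. Single genes also had an exact permutation test over 70 assignments. Alternatives were other filters, scalings, priors, array weights, covariates, row rules, a replicate block and left-out arrays. The members and lists were chosen with earlier results of these data known. Named genes are the members, up to 5 genes per list with the smallest unadjusted p, and 5 most alike in profile. Pparg, Krt1 and Krt10 were named outside that rule, to describe the samples, and Sdr9c7 and Ephx3 after their values were seen. Of the suprabasal list, 4 genes were not analysed here and Krt2 lay under the filter.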

Additional observations from a re-analysis of the deposited data

Results flagged for a closer look

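Of 158 groups of 4 values examined (the 9 barrier genes, other named genes and list means), 8 held a value set far apart from its 3 companions; by chance about 1 in 20, or 8, would. None was a barrier gene. They are given as values, in log2.

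Corneodesmosin (Cdsn) was at 11.19 for labelled-null array 4, the remaining labelled-null arrays lying between 10.96 and 10.98. The basal keratin Krt14 read 11.80 on control array 2 and 11.90 to 11.92 on the others. Relative to all arrays, the list mean of ceramide processing and turnover was -0.077 on control array 2, against 0.018 to 0.024 on the other control arrays, and that of barrier transcription factors was -0.11, against 0.035 to 0.057. On labelled-null array 4 the dermal fibroblast list was at -0.15, with the remaining labelled-null arrays at 0.0039 to 0.021, and the leukocyte and mast cell list at -0.19, against -0.0096 to 0.0059. The white adipocyte list was at -0.22 on labelled-null array 3, against -0.33 to -0.31, and at 0.13 on control array 1, against 0.33 to 0.37 on the other control arrays.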

How the results depend on the processing

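No barrier gene passed the threshold in any of 20 alternatives, which include the main fit read at an adjusted p of 0.01. That reading could not add a call, since no barrier gene passed at 0.05. The lowest limma adjusted p of a barrier gene under them was 0.982. Of 170 differences under alternatives 151 lay above 0 and 19 had turned below it. The count of 151 is not independent support for a direction. The other filters, the other prior, the replicate block and the row rule leave these differences unchanged, so their signs could not turn there. Leaving out 1 array gave log2 differences of Alox12b -0.064 to 0.24, Aloxe3 -0.097 to 0.16, Abca12 -0.12 to 0.23, Elovl4 -0.043 to 0.22, Cers3 -0.10 to 0.24, Cyp4f39 -0.092 to 0.20, Fa2h 0.05 to 0.30, Ugcg 0.01 to 0.22, Pnpla1 -0.20 to 0.13, and 2 to 9 genes above control, with 2 without labelled-null array 4. Without labelled-null array 4 and control array 1 together 4 lay above control, and Pnpla1 was at -0.14, Abca12 at -0.029, Aloxe3 at -0.018, Cers3 at -0.011 and Cyp4f39 at -0.0023. With the suprabasal covariate Pnpla1 was at -0.079 and Aloxe3 at -0.0068, and Pnpla1 was at -0.031 with array weights and -0.0081 with arrays centred on their medians. The cause of these turns was not tested. The median residual SD of the 9 genes was 0.21 without labelled-null array 4. Over all genes 18 passed, and 3 did at an adjusted p of 0.01, 11 with an Xist covariate, and 3 to 15 with 1 array left out. Replicate numbers gave no pairing: deviations from group means correlated at -0.31, 0.20, 0.05 and -0.03 between arrays of equal number across tested genes, and the replicate block left 1 gene and 0 barrier genes. Each barrier gene has 1 row, so rows taken singly give no other value, and Fa2h lay under the filter at the 50th percentile. Counts of genes above control and residual SDs under alternatives were added after seeing the data. The number of arrays limits the precision.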
